A study of Mus musculus with 12 samples.

Results

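The liver's response to a diet rich in fat that lacks methionine and choline (MCD+HF) was read from 8 of the 12 arrays of the series. The members were the 4 arrays of MCD+HF mice and the 4 arrays of mice on normal chow (NC), each from the liver of 1 C57BL/6 mouse. All mice were 8 weeks old when feeding began, were fed for 8 weeks, and gave liver tissue labelled as fasting. The labels name no transgene in these groups, and neither group received metformin. The remaining 4 arrays, from mice on the same diet with 0.1% metformin, entered the filter on dim probe sets and the estimate of the spread between mice and are not compared here. The labels give neither the sex of the mice nor the time of day of sampling.

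Methionine and choline are the precursors from which the liver makes S-adenosylmethionine, the methyl donor of the cell, and phosphatidylcholine, the main phospholipid of membranes and of the coat of very low density lipoprotein (VLDL). Without phosphatidylcholine, hepatocytes export less triglyceride and lipid collects in droplets. Rodents on such diets develop steatosis with inflammation and fibrosis and, unlike obese animals, lose weight. The comparison therefore asks which transcripts of hepatocytes, immune cells and matrix-producing cells differ in a liver in which steatohepatitis has been induced by diet.

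The Affymetrix Mouse Genome 430 2.0 array reads each transcript through several short probes, whose joint signal intensity stands as 1 value for the probe set. The authors scaled each array to an average signal of 100. Here 10 was added to each signal and log2 was taken, so that every log2 difference is MCD+HF minus NC on this scale, and that of a dim gene is understated. Of 45101 probe sets, 22832 that were no controls and had a mean signal of at least 20 over the 12 arrays were tested with limma, with Benjamini-Hochberg adjustment over all of them. A gene with a mean under 20 in NC mice passed this filter only where arrays of mice on the diet were brighter. In lists that hold such genes, the share raised is therefore partly set by the filter. A probe set was called raised or lowered at an adjusted p under 0.05. A gene was represented by the brightest probe set that named it alone, which gave 11172 genes. Since levels were compared between mice and never between probe sets, a high signal does not mean that a gene had more transcript than another.

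A large share of the genes tested differed between the diets. limma called 9999 probe sets (43.8%), of which 5808 were raised (25.4%) and 4191 lowered (18.4%). Among genes, 5403 were called (48.4%), 3049 of them raised (27.3%) and 2354 lowered (21.1%). At least 2-fold changes among called genes comprised 1067 rises (9.55%) and 540 falls (4.83%), and at least 8-fold changes comprised 58 rises and 43 falls. The signals of the 4 MCD+HF mice and the 4 NC mice did not overlap for 5042 genes (45.1%). Correlations across probe sets were 0.971 to 0.979 between NC arrays, 0.976 to 0.988 between MCD+HF arrays and 0.894 to 0.910 between the groups. The median log2 difference over all genes was 0.05.

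The split between rises and falls depended on how the arrays were scaled. When each array was centred on its median, the median of all genes moved to -0.09 and the split became 2263 raised and 3210 lowered genes, so that 41.4% of called genes were raised in place of 56.4%. The brightest transcripts were also placed differently. The highest signal on an array was 19413 to 23473 in NC mice and 9467 to 11830 in MCD+HF mice. Of the 100 genes with the highest mean signal, 90 were lowered and 2 raised, and the middle 50% of their log2 differences lay between -1.04 and -0.55. After quantile normalization, which gives every array the same distribution of signals, 32 of these 100 were lowered and 28 raised, with a median of -0.02. The value after quantile normalization is therefore given below beside each called difference that it moved by over 1.5 times; no such gap applied to genes of signal 470.2 to 993, whose median was -0.01 and 0.01 under the 2 scalings.

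**Figure D1:**
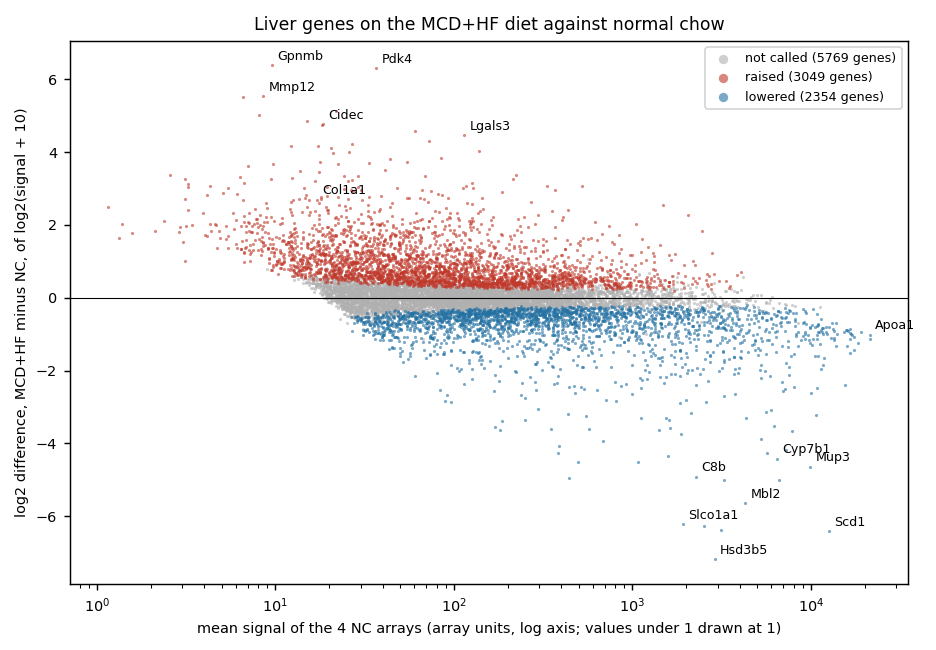
Log2 difference between MCD+HF and NC mice (vertical axis, on the log2(signal + 10) scale) against the mean signal of the 4 NC arrays (horizontal log axis) for 11172 genes; each point is 1 gene, coloured by the limma call. The genes at the right edge lie mostly near -1, while Hsd3b5, Scd1 and Slco1a1 lie below -6 and Gpnmb and Pdk4 above 6.

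The largest rises were in genes known from several kinds of cell. Gpnmb, a glycoprotein of lipid-laden macrophages, had signals of 5.1, 4.7, 17.3 and 11.2 in NC and 2184, 2462, 861 and 1324 in MCD+HF mice. Its log2 difference of 6.39, standard error 0.28, adjusted p = 1.6e-10 was the largest rise of all genes. Pdk4, the kinase that shuts off pyruvate dehydrogenase when fatty acids are burned, had signals of 44, 41.1, 25.1 and 36.9 in NC and 2501, 3276, 4703 and 4628 in MCD+HF mice, and the groups did not overlap, as in 45.1% of all genes (log2 difference 6.31, standard error 0.25, adjusted p = 5.9e-11). The other genes of the 15 largest rises comprised Mmp12 and Mmp7, 2 metalloproteinases that cleave matrix (5.55 and 5.13), the sulfotransferases Sult1e1 (5.52) and Sult2a2 (5.02), Cyp2b9 (4.86) and Cyp3a44 (4.17), Cidec of lipid droplets (4.77), the fetal plasma protein Afp (4.75), the glycogen-targeting subunit Ppp1r3g (4.58), the lectin Lgals3 (4.47), Ly6d (4.31), the water channel Aqp4 (4.22) and Bex1 (4.17). All of these were called, with adjusted p-values from limma of at most 7.6e-06.

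The largest falls were mostly in genes known from hepatocytes. Hsd3b5, a steroid-metabolising enzyme of male mouse liver, had signals of 3377, 2825, 2456 and 2923 in NC and 18.9, 8.0, 7.6 and 7.2 in MCD+HF mice (log2 difference -7.18, standard error 0.20, adjusted p = 1.7e-12). Scd1, the desaturase that makes oleate from stearate, had signals of 11960, 14200, 11931 and 12472 in NC and 229, 189.5, 104 and 75.7 in MCD+HF mice (log2 difference -6.42, standard error 0.46, adjusted p = 2.8e-08). Hsd3b5 lay at the dim end of the array in the MCD+HF mice, while Scd1, among the brightest genes of the NC mice, still gave a measurable signal. The other 13 of the 15 largest falls comprised Cyp2c54 (-6.38), the major urinary proteins Mup10 (-6.28) and Mup3 (-4.65), the organic anion carrier Slco1a1 (-6.23), the complement proteins Mbl2 (-5.65), C8b (-4.92) and C6 (-4.34), the carboxylesterase Ces2a (-5.02), Wfdc21 (-5.00), Serpina4-ps1 (-4.95), Moxd1 (-4.52), Serpina12 (-4.51) and the oxysterol hydroxylase Cyp7b1 (-4.43). Major urinary protein genes are near-identical, so their probes may read several of them. None of these 15 calls was lost under any alternative processing.

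**Figure D2:**
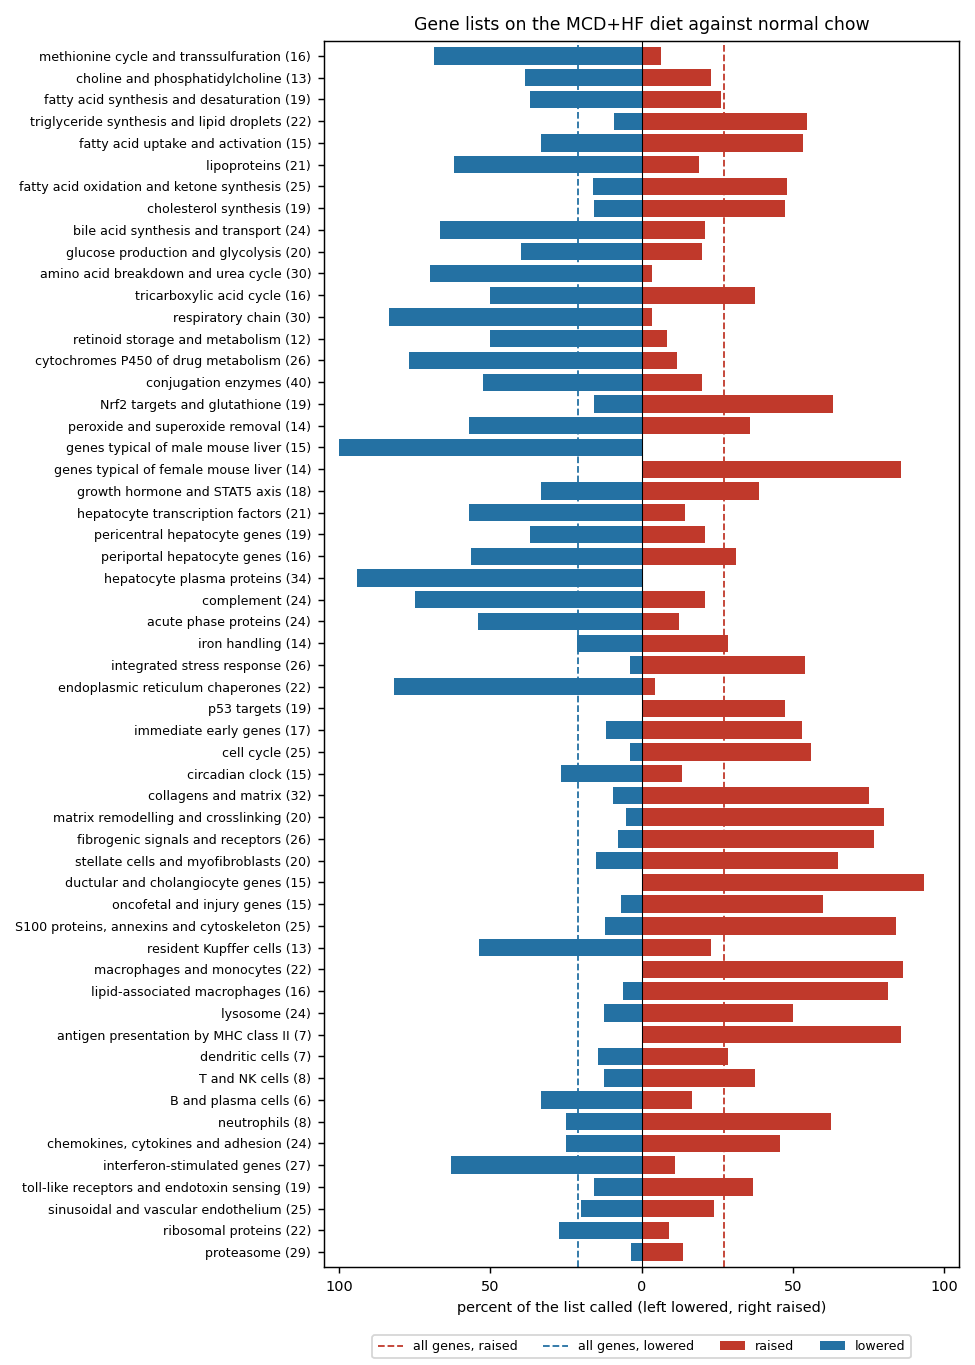
Percent of the tested genes of each list that were lowered (blue, to the left) or raised (red, to the right) on the MCD+HF diet, with the number tested in parentheses; dashed lines mark all genes (27.3% raised, 21.1% lowered). Lists of hepatocyte function extend to the left and lists of matrix, ductular cells and macrophages to the right.

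Genes that differ between male and female mouse liver moved to the female side. Growth hormone, released in pulses in male mice and more evenly in female mice, sets this difference in hepatocytes. Of 15 tested genes typical of male liver, 15 were lowered, with a median log2 difference of -3.58, and of 14 typical of female liver, 12 were raised and 0 lowered, with a median of 1.97. After quantile normalization, and also after median centring, 11 of the 14 were raised and 1 lowered. The female list had 16 genes on the array. Cyp3a16 and Sult3a1 were below the filter, with mean signals of 3.775 and 5.15 in NC and 1.675 and 2.8 in MCD+HF mice. Cyp2b9 and Sult2a2, dim in NC mice, passed it only through mice on the diet. Slco1a1 had signals of 1943, 1922, 1503 and 2289 in NC and 23.4, 29.3, 11 and 4.9 in MCD+HF mice (log2 difference -6.23, standard error 0.25, adjusted p = 5.9e-11), and Mup3, a pheromone carrier of urine, 9718, 11631, 10045 and 8172 in NC and 561, 428, 329 and 268 in MCD+HF mice (log2 difference -4.65, standard error 0.30, adjusted p = 9.6e-09). Elovl3, which elongates very long fatty acids, gave 2131, 1648, 1585 and 1171 in NC and 75.5, 115, 139 and 193 in MCD+HF mice (log2 difference -3.58, standard error 0.24, adjusted p = 1.8e-08). The groups did not overlap in any of these, as in 45.1% of all genes. On the female side, Cyp2b9 had signals of 15.7, 10.6, 18.1 and 15.9 in NC and 590.4, 594, 873 and 852 in MCD+HF mice (log2 difference 4.86, standard error 0.18, adjusted p = 2.5e-11), Sult2a2 7.9, 16.4, 2.1 and 6.1 in NC and 319, 323, 728 and 1243 in MCD+HF mice (log2 difference 5.02, standard error 0.52, adjusted p = 1.4e-06) and Acot3, a peroxisomal thioesterase, 40.7, 142, 68.4 and 300.1 in NC and 1481, 1698, 1835 and 2825 in MCD+HF mice (log2 difference 4.03, standard error 0.40, adjusted p = 8.2e-07). Cyp17a1 and Cux2 were not called (-1.14 and -0.28), but Cyp17a1 was lowered after quantile normalization (-1.22) and after median centring (-1.27). The Y-linked gene Eif2s3y had signals of 293 to 375 in NC and 221 to 295 in MCD+HF mice, and the X-inactivation transcript Xist 15.3 to 22.6 and 9.0 to 17.2, so all 8 arrays carried Y-linked signal and none had bright Xist; these genes were chosen as a check of the samples.

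**Figure D3:**
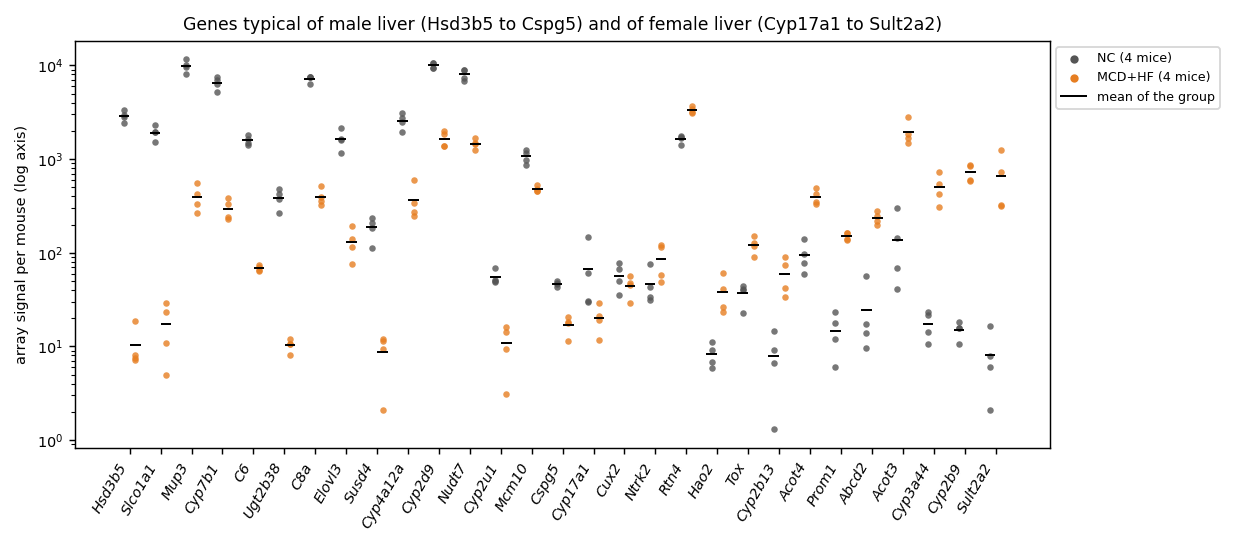
Array signal per mouse (vertical log axis) of the tested genes typical of male liver and of female liver (horizontal axis, ordered by log2 difference within each list); points are mice and black lines group means. Hsd3b5 to Cspg5 are lower in the MCD+HF mice, and 12 of the 14 female-typical genes are higher.

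The receptors and feedback genes of the growth hormone axis did not move one way. Of 18 genes tested, 7 were raised and 6 lowered (38.9% and 33.3%, against 27.3% and 21.1% of all genes). The growth hormone receptor Ghr had signals of 3667, 4245, 3788 and 4484 in NC and 1174, 1312, 1263 and 1366 in MCD+HF mice (log2 difference -1.65, standard error 0.09, adjusted p = 2.9e-09). Egfr, the epidermal growth factor receptor of hepatocytes, was lowered (-2.28), as were Bcl6, a repressor typical of male liver (-1.95), and Igfals, the carrier subunit of insulin-like growth factors (-1.55). Socs2, a feedback inhibitor of growth hormone signalling, was raised (2.11), as were Igfbp1, a binding protein of insulin-like growth factors that rises in fasting (2.27), Irs2 (1.66) and the leptin receptor Lepr (3.99). Igf1 had a mean signal of 3777 ± 249.8 (SD, n = 4) in NC and 3241 ± 538 in MCD+HF mice on its brightest probe set, which was not called (log2 difference -0.23), while its 3 other probe sets were lowered (-1.23, -0.62 and -0.53). The brightest was lowered after median centring (-0.37).

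Genes of lipid storage were raised more often than lowered, and the regulators of fat synthesis Srebf1 and Mlxipl were lowered. Fatty acids in the liver are built by Fasn under the control of Srebf1 and Mlxipl, desaturated by Scd1, and stored in droplets coated by perilipins and Cide proteins. Cidec, which fuses droplets, had signals of 7.9, 23.6, 19.8 and 22.5 in NC and 630.1, 789, 738 and 841 in MCD+HF mice (log2 difference 4.77, standard error 0.18, adjusted p = 2.7e-11). Cidea had 2.4, 2.0, 6.3 and 2.3 in NC and 48, 146, 166 and 96 in MCD+HF mice (log2 difference 3.12, standard error 0.29, adjusted p = 5.3e-07), and Plin4 71.1, 55.8, 40.6 and 210.4 in NC and 252, 439, 463 and 461 in MCD+HF mice (log2 difference 2.19, standard error 0.35, adjusted p = 1.0e-04). No MCD+HF mouse overlapped an NC mouse in these 3 genes of the droplet surface, as in 45.1% of all genes. Of 22 genes of triglyceride synthesis and droplets, 12 were raised and 2 lowered, with a median log2 difference of 0.56, and after median centring 10 were raised and 6 lowered. Hilpda (2.77), Plin5 (1.52), the triglyceride lipase Pnpla2 (1.02) and Plin2 (0.71; 1.28 after quantile normalization) were among those raised.

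In fatty acid synthesis, 7 of 19 genes were lowered and 5 raised (36.8% and 26.3%, against 21.1% and 27.3% of all genes), with a median of -0.12. Srebf1, the sterol regulatory element-binding protein, had signals of 808, 796, 825 and 1164 in NC and 472, 434, 243 and 387 in MCD+HF mice (log2 difference -1.23, standard error 0.20, adjusted p = 1.2e-04). Mlxipl, the carbohydrate-responsive factor (-1.12), and Thrsp (-2.03) were lowered as well. Fasn, the fatty acid synthase itself, had 325, 362, 516 and 507 in NC and 369, 460.1, 259 and 249 in MCD+HF mice, a log2 difference of -0.36 that was not called (standard error 0.28, adjusted p = 0.315 from limma). Acly and Acaca were not called either (-0.12 and 0.08). Among the desaturases Scd1 fell while Scd2 (1.68), Fads2 (0.94) and Fads1 (0.42; 0.64 after quantile normalization) rose.

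Genes of fatty acid uptake and activation split, with 8 of 15 raised and 5 lowered. Cd36, a scavenger receptor that takes up fatty acids, had signals of 317, 311, 299 and 394 in NC and 2961, 2845, 2907 and 2691 in MCD+HF mice (log2 difference 3.08, standard error 0.10, adjusted p = 1.2e-11), and lipoprotein lipase, Lpl, 370.3, 534, 415 and 429.9 in NC and 2766, 2719.6, 1813 and 2259 in MCD+HF mice (log2 difference 2.42, standard error 0.14, adjusted p = 3.3e-09). Both are scarce in normal hepatocytes. Fabp4 (1.87) and Fabp7 (1.75) rose too. Slc27a5, which activates bile acids and fatty acids, had 6534, 7305, 7112 and 6917 in NC and 909, 950.1, 1517 and 1453 in MCD+HF mice (log2 difference -2.56, standard error 0.15, adjusted p = 3.1e-09), and Slc27a2, another acyl-CoA synthetase of hepatocytes, was lowered too (-1.13; -0.57 after quantile normalization). Fabp1, the liver fatty acid-binding protein, had a log2 difference of -1.14, which became -0.12 and was no longer called after quantile normalization.

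Lipoprotein genes were lowered in number, 13 of 21 with 4 raised, but their median of -0.56 turned to 0.02 after quantile normalization, where 7 were lowered and 6 raised. Apob, the structural protein of VLDL, had signals of 10558, 11247, 12195 and 11785 in NC and 6893, 7139.8, 7863 and 8682 in MCD+HF mice (log2 difference -0.59, standard error 0.09, adjusted p = 4.7e-05; 0.28 after quantile normalization). Mttp, which loads triglyceride onto Apob, had 1763, 1768, 1824 and 1797 in NC and 1164, 1102, 1355 and 1230.2 in MCD+HF mice (log2 difference -0.56, standard error 0.09, adjusted p = 1.8e-04; -0.36 after quantile normalization). Apoa1, of high density lipoprotein, had -1.02 as deposited and 0.02 after quantile normalization. Larger and stable under both were the falls of Apom (-1.39) and of Lcat, which esterifies plasma cholesterol (-1.30), and the rises of Vldlr, a receptor that takes up VLDL (2.60), and Apoa4 (2.56).

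In fatty acid oxidation the balance depended on the scaling, with 12 of 25 genes raised, 4 lowered and a median of 0.27 as deposited, 7 raised and 6 lowered (median 0.13) after median centring, and 20 raised and 3 lowered (median 0.57) after quantile normalization. Beside Pdk4, the thioesterase Acot1 had signals of 248, 471, 247 and 647 in NC and 1149, 1404, 2278 and 2017 in MCD+HF mice (log2 difference 2.13, standard error 0.30, adjusted p = 3.3e-05). The omega-hydroxylase Cyp4a14 rose by 1.83 and the coactivator Ppargc1a by 1.54, each called by limma but not by the methods' t-test after adjustment. The dehydrogenase of long-chain fatty acids, Acadl, was raised by less (0.47; 0.79 after quantile normalization). Cpt1a, the gate to the mitochondrion, had a log2 difference of -0.08, which was not called, and of 0.28 after quantile normalization, and a dimmer probe set of it was raised (0.50). Ppara, the receptor that drives these genes, was lowered (-0.54), a call lost after quantile normalization (-0.21).

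**Figure D4:**
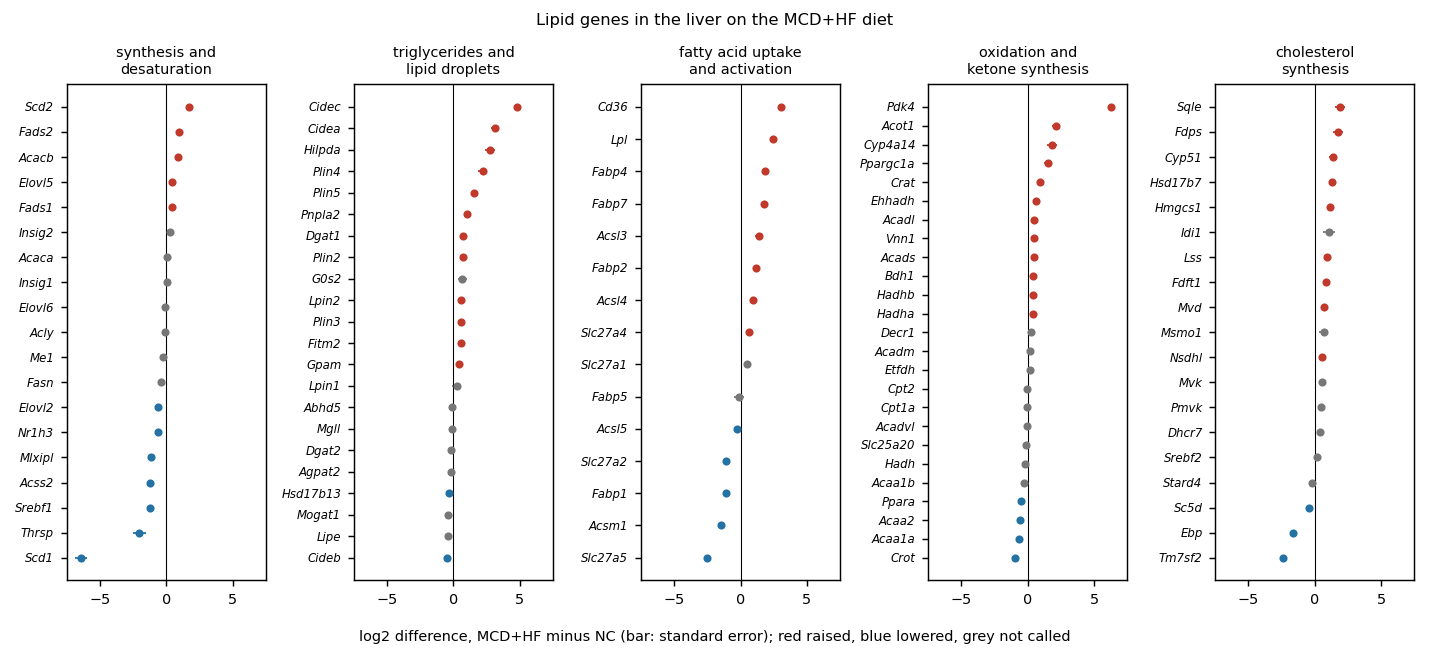
Log2 difference, MCD+HF minus NC (horizontal axis; bars are standard errors from limma), of every tested gene (vertical axis) in 5 lists of lipid metabolism; red was raised, blue lowered and grey not called. Scd1 stands alone at -6.42, Pdk4 at 6.31 and Cidec at 4.77.

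Genes of cholesterol synthesis were raised more often than lowered, and most bile acid genes were lowered. Of 19 cholesterol genes, 9 were raised and 3 lowered (median 0.67). The mean of this list over the NC mean was 0.57 in NC mouse 3, above the 0.40, 0.44, 0.54 and 0.54 of MCD+HF mice 1 to 4, and between -0.32 and 0.01 in the other NC mice. Sqle, the squalene epoxidase, had signals of 133, 69.7, 357 and 72.5 in NC and 486, 544, 475 and 496 in MCD+HF mice (log2 difference 1.90, standard error 0.40, adjusted p = 0.00108). Fdps (1.74), Cyp51 (1.34), Hsd17b7 (1.30) and Hmgcs1 (1.17) were raised, and Tm7sf2 (-2.38) and Ebp (-1.63), 2 enzymes that modify the sterol ring after lanosterol, were lowered. Among bile acid genes, 16 of 24 were lowered and 5 raised (median -0.85).

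Of the bile acid enzymes, Cyp7b1 of the alternative pathway had signals of 6300.4, 7004, 7450.3 and 5181 in NC and 241, 231, 383 and 329 in MCD+HF mice (log2 difference -4.43, standard error 0.21, adjusted p = 4.7e-10). Cyp7a1, the first enzyme of the classical pathway, had 1003, 1101, 364 and 892 in NC and 481, 371, 287 and 341 in MCD+HF mice, a difference of -1.07 that was not called (adjusted p = 0.0633 from limma) and whose groups overlapped. This probe set was lowered after median centring (-1.21). A dimmer probe set of Cyp7a1 was lowered as deposited (-1.03, adjusted p = 0.0374 from limma). The nuclear receptor Nr0b2, a target of bile acid signalling, had 775, 860.4, 933 and 687 in NC and 108, 122, 87.1 and 101 in MCD+HF mice (log2 difference -2.84, standard error 0.22, adjusted p = 8.2e-08). The uptake carriers Slc10a1 (-2.02) and Slco1b2 (-1.28) fell with Slco1a1. Of the exporters on the blood side, Abcc4 and Slc51b were raised and Abcc3 was not called (-0.32): Abcc4 had signals of 48.6, 31.3, 34.4 and 50.8 in NC and 396, 478, 625 and 851 in MCD+HF mice (log2 difference 3.5, standard error 0.20, adjusted p = 2.8e-09) and Slc51b had a log2 difference of 1.21. The canalicular pump Abcb11 was lowered (-1.08).

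Genes of the pathway that uses methionine were lowered more often than raised. Of 16 genes of the methionine cycle and transsulfuration, 11 were lowered and 1 raised, with a median of -0.70 (-0.27 after quantile normalization, with 7 lowered and 3 raised). Gnmt, which disposes of excess methyl groups, had signals of 11082, 12738, 12086 and 11112 in NC and 2392, 3308, 3689 and 3902 in MCD+HF mice (log2 difference -1.84, standard error 0.13, adjusted p = 1.8e-08). Cbs, the first enzyme from homocysteine to cysteine, had 1593, 1533, 1371 and 1209 in NC and 454, 444, 415 and 447 in MCD+HF mice (log2 difference -1.67, standard error 0.10, adjusted p = 6.7e-09), and Sardh, which oxidises sarcosine, changed by -2.06. Mtr, the enzyme that remakes methionine from homocysteine with folate, was the 1 member raised (0.58), a call lost after median centring (0.44) and when MCD+HF mouse 1, 2 or 3 or NC mouse 1 or 2 was left out (0.49 to 0.56). Mat1a, which makes S-adenosylmethionine, had a difference of -0.37 that turned to 0.27 after quantile normalization and was not called without MCD+HF mouse 1 or NC mouse 2 (-0.29 for each). For choline, Chka, the kinase that starts phosphatidylcholine synthesis, had 65.6, 60.2, 36.9 and 59.3 in NC and 147, 206, 246 and 191 in MCD+HF mice (log2 difference 1.67, standard error 0.16, adjusted p = 8.0e-07), while Pemt, which methylates phosphatidylethanolamine, had a mean signal of 1259 ± 77.8 (SD, n = 4) in NC and 1488 ± 279.9 in MCD+HF mice and was not called (0.22). Pemt was raised after quantile normalization (0.38).

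Amino acid breakdown was lowered in 21 of 30 genes, with 1 raised and a median of -0.88 (18 lowered and 1 raised after quantile normalization). Otc, the ornithine transcarbamylase of the urea cycle, had signals of 5155, 6185, 5381 and 5691 in NC and 713, 648, 600.2 and 546 in MCD+HF mice (log2 difference -3.14, standard error 0.12, adjusted p = 4.0e-11). Haao, of the path from tryptophan to NAD, had 2104, 2135, 1935 and 2387 in NC and 214, 239, 219.7 and 244 in MCD+HF mice (log2 difference -3.17, standard error 0.09, adjusted p = 2.3e-12). Hal, which starts histidine breakdown (-2.23), Gldc, of glycine cleavage (-1.90), and Agxt, which removes glyoxylate (-1.63), were also lowered. Gpt2, a mitochondrial alanine transaminase, was the member raised (0.59).

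In energy metabolism, 25 of 30 subunits of the respiratory chain were lowered and 1 raised, but the falls were small, with a median of -0.42 and none beyond -0.85. After quantile normalization 9 were lowered and 3 raised (median -0.16). The tricarboxylic acid cycle split, with 6 of 16 raised and 8 lowered: Mdh2 (1.20) and Idh2 (0.87) rose and the succinate dehydrogenase subunits Sdhb (-0.72) and Sdha (-0.60) fell, by less after quantile normalization (-0.38 and -0.26). In glucose metabolism, the liver glycogen phosphorylase Pygl had signals of 2504, 2822, 2659 and 2973 in NC and 753, 741, 880 and 845 in MCD+HF mice (log2 difference -1.76, standard error 0.10, adjusted p = 1.8e-09), and Khk, the fructose kinase, fell (-1.21). Fbp1, of glucose production, and the glucose carrier Slc2a2 had log2 differences of -1.15 and -0.81 as deposited and of -0.34 and -0.48 after quantile normalization, all called. Pkm, the pyruvate kinase of tissues other than hepatocytes, had 19.9, 47.9, 22.6 and 48.6 in NC and 242, 206, 113 and 143 in MCD+HF mice (log2 difference 2.07, standard error 0.25, adjusted p = 8.3e-06), and Hk1 (1.25) and Aldoa (1.33) rose with it, while the liver pyruvate kinase Pklr (0.11) and G6pc (0.41) were not called. G6pc was raised after quantile normalization (0.78).

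Enzymes of drug metabolism were lowered. Of 26 cytochromes P450, 20 were lowered and 3 raised (median -1.17; after quantile normalization 19 lowered, 4 raised, median -1.04). Cyp2f2, an enzyme of periportal hepatocytes, had signals of 9748, 11907, 10717 and 10164 in NC and 1112, 1388, 830.1 and 1248 in MCD+HF mice (log2 difference -3.23, standard error 0.18, adjusted p = 2.4e-09). Cyp1a2, of pericentral hepatocytes, had 2762, 3113, 3306 and 3509.8 in NC and 817, 1153, 756 and 635 in MCD+HF mice (log2 difference -1.93, standard error 0.30, adjusted p = 9.8e-05). Cyp2e1, which oxidises ethanol and makes reactive oxygen, had 15915, 17751, 17548 and 15051 in NC and 8129.8, 9287, 8981 and 10084 in MCD+HF mice, a log2 difference of -0.86 that became 0.16 after quantile normalization. Members of the P450 family are close in sequence, so that probes can read more than 1 of them. Conjugating enzymes followed, with 21 of 40 lowered and 8 raised: Ugt2b38 (-4.26), Ugt2b1 (-2.52) and Gstp1 (-1.52; -0.67 after quantile normalization) fell, and Fmo2 (3.35), Mgst3 (2.60) and Gstm3 (1.58) rose.

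Targets of Nrf2, the factor that answers oxidative and electrophilic stress, were raised in 12 of 19 genes and lowered in 3 (median 0.53). Hmox1, the heme oxygenase, had signals of 88.8, 65.5, 86.9 and 102 in NC and 317, 345, 559 and 415 in MCD+HF mice (log2 difference 2.11, standard error 0.16, adjusted p = 5.1e-08). Nqo1, a quinone reductase, had 83.4, 55, 56.5 and 71.4 in NC and 118, 149.8, 223 and 166 in MCD+HF mice (log2 difference 1.17, standard error 0.21, adjusted p = 3.9e-04), and Cbr3 (3.21), Pgd of the pentose phosphate pathway (2.16) and Srxn1 (1.31) rose further or about as far. The 2 subunits of glutathione synthesis, Gclc (0.03) and Gclm (-0.30), were not called, though a dimmer probe set of Gclm was lowered (-0.27). Gclc was raised after quantile normalization (0.405), and Gclm was lowered after median centring (-0.435). Among genes that remove peroxide and superoxide, Gpx3 rose (2.96), and Gpx1 fell (-1.01; -0.33 after quantile normalization). The median of that list was -0.30, and it turned to 0.02 after quantile normalization.

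Proteins that hepatocytes secrete into plasma were lowered in 32 of 34 genes, with 0 raised and a median of -1.12; after quantile normalization 25 were lowered and 1 raised, with a median of -0.54. Albumin, Alb, had signals of 16208, 18414, 17788 and 15929 in NC and 7791, 8252, 8436 and 9264 in MCD+HF mice, a log2 difference of -1.02 that became -0.00 and was no longer called after quantile normalization. Coagulation factor XI, F11, had 749.7, 680, 833 and 759.8 in NC and 178, 162, 234 and 214 in MCD+HF mice (log2 difference -1.90, standard error 0.13, adjusted p = 2.5e-08), and Itih1 (-2.38), Fetub (-2.08) and plasminogen, Plg (-1.66; -1.04 after quantile normalization), were lowered as well. In bulk liver, fewer hepatocytes and less transcript per hepatocyte cannot be told apart.

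Most complement genes were lowered. Mbl2, the lectin that starts one of its pathways, had signals of 4235, 4307, 4192 and 4355 in NC and 89.5, 63.3, 82 and 69.1 in MCD+HF mice (log2 difference -5.65, standard error 0.15, adjusted p = 1.7e-12). The parts of the membrane attack complex, C8b (-4.92), C6 (-4.34), C8a (-4.17), C9 (-3.87) and Hc, which encodes C5 (-1.99), all fell. Cfb of the alternative pathway (-0.68; -0.40 after quantile normalization) and C2 of the classical pathway (-0.99) were lowered as well. In all, 18 of 24 complement genes were lowered and 5 raised, and the raised ones included C1qa (0.62), C1qb (1.18) and C1qc (0.68), which macrophages make, and the receptor C3ar1 (2.35). C6 and C8a also belong to the genes typical of male liver.

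Acute phase genes were lowered in 13 of 24 and raised in 3 (median -0.63; 9 lowered, 3 raised and a median of -0.20 after quantile normalization). The mean of this list over the NC mean was -0.73 in NC mouse 4, within the -0.66, -0.71, -0.80 and -0.49 of MCD+HF mice 1 to 4, and 0.03, 0.15 and 0.55 in NC mice 1 to 3. Serum amyloid A1, Saa1, had signals of 4597, 6462, 10596 and 947 in NC and 302, 313, 95.4 and 204 in MCD+HF mice (log2 difference -4.26, standard error 0.58, adjusted p = 2.3e-05), and Saa2 722, 962, 3825 and 158 in NC and 79.4, 78.4, 27 and 54.3 in MCD+HF mice (log2 difference -3.64, standard error 0.62, adjusted p = 1.9e-04). Probes for these near-identical genes may read both. Lcn2, an iron-scavenging protein of hepatocytes and neutrophils, had 386, 236, 1389 and 72.3 in NC and 3342, 2885, 1833 and 3011 in MCD+HF mice (log2 difference 3.06, standard error 0.64, adjusted p = 0.0011), and haptoglobin, Hp, had a difference of -0.95 that was -0.22 and not called after quantile normalization. Of 14 iron genes, 4 were raised and 3 lowered, shares close to those of all genes (27.3% and 21.1%): the transferrin receptor Tfrc rose (1.56) and Tfr2 fell (-1.97), while hepcidin, Hamp, had a mean signal of 8479 ± 3577 (SD, n = 4) in NC and 4811 ± 339 in MCD+HF mice and was not called (-0.70).

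The transcription factors that hold the hepatocyte state were lowered more often than raised, 12 of 21 against 3 (median -0.49). Hnf4a had signals of 3327, 3136, 2422 and 3152 in NC and 1567, 1443, 1879 and 1796 in MCD+HF mice (log2 difference -0.84, standard error 0.11, adjusted p = 1.7e-05; -0.53 after quantile normalization). Cebpa had 1358, 1293, 1262 and 1644 in NC and 941, 592, 475 and 703 in MCD+HF mice (log2 difference -1.06, standard error 0.24, adjusted p = 0.00192) and Foxa2 a difference of -0.97. By zone of the lobule, 7 of 19 pericentral genes were lowered and 4 raised (36.8% and 21.1%, against 21.1% and 27.3% of all genes), and 9 of 16 periportal genes were lowered and 5 raised. Glul, the glutamine synthetase of the innermost hepatocytes, had a mean signal of 3343 ± 429 (SD, n = 4) in NC and 3787 ± 492 in MCD+HF mice and Axin2, a Wnt target, a mean signal of 47.9 ± 17 (SD, n = 4) in NC and 56.7 ± 13.8 in MCD+HF mice in these groups, and neither was called (0.18 and 0.23); a dimmer probe set of Glul was raised (0.72). Glul was raised after quantile normalization (0.58). Whether the pericentral and periportal zones differed was not tested. The median of the pericentral list changed sign with the scaling (-0.07 as deposited, 0.14 after quantile normalization, where 5 were lowered and 8 raised). That of the periportal list went from -0.70 to -0.06 after quantile normalization, with 6 lowered and 4 raised.

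The 2 arms of the response to protein and amino acid stress went opposite ways. In the integrated stress response, amino acid shortage or misfolded protein leads to translation of Atf4, which turns on amino acid synthesis and transport. In its list 14 of 26 genes were raised and 1 lowered (median 0.46). Psat1, of serine synthesis, had signals of 8.7, 14.2, 30.1 and 2.2 in NC and 199, 222, 227 and 302 in MCD+HF mice (log2 difference 3.49, standard error 0.28, adjusted p = 1.0e-07). Fgf21, a hormone of fasting and amino acid shortage, had 39.9, 39.8, 72.5 and 28.3 in NC and 266, 241, 221 and 237 in MCD+HF mice (log2 difference 2.24, standard error 0.23, adjusted p = 1.4e-06), and Atf3 25, 27, 10.1 and 28.7 in NC and 188, 191, 169.8 and 161 in MCD+HF mice (log2 difference 2.56, standard error 0.18, adjusted p = 3.3e-08). Nupr1 (2.01), Slc7a1 (1.57) and Ddit4 (1.33) were also raised, and Asns, the asparagine synthetase, rose by 1.96 but not by the methods' t-test after adjustment. Ddit3 (-0.22), Trib3 (-0.19) and Chac1 (-0.09), which also belong to this response, were not called. Ddit3 was lowered after quantile normalization and after median centring (-0.35 for each). Atf4 itself differed by 0.50, a call that was lost after median centring (0.37) and when MCD+HF mouse 1, 3 or 4 or NC mouse 2 or 3 was left out (0.37 to 0.51).

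Chaperones of the endoplasmic reticulum were lowered in 18 of 22 genes and raised in 1 (median -0.83). Hspa5, the chaperone BiP, had signals of 6214, 7545, 7630.4 and 4595 in NC and 3642, 3511, 2965 and 3393 in MCD+HF mice (log2 difference -0.92, standard error 0.15, adjusted p = 1.1e-04; -0.47 after quantile normalization). Herpud1 (-1.20), Manf (-1.26) and Creld2 (-1.25) fell further. After quantile normalization 18 of the list were lowered and 1 raised.

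Promoters of the stress genes were searched for the C/EBP-ATF response element, written TGATGNAA with its reverse complement TTNCATCA, in RefSeq promoters (GRCm38.p6, 250 bases before to 50 after each start site). It was found in 8 of the 23 tested genes of the integrated stress response list with a promoter in the table, against 4.51% of all genes in the table. It stood in 5 of the 13 raised genes and in 3 of the 10 others. The 80 bases around the match are shown for the 4 raised genes that changed most and hold it, on the strand of the gene, with the matched letters in capitals.
Vldlr: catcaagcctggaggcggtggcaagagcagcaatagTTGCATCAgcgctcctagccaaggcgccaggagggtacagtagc
Atf3: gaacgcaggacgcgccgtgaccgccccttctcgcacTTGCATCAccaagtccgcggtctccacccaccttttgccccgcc
Fgf21: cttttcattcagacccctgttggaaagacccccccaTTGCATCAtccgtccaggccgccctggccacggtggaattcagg
Nupr1: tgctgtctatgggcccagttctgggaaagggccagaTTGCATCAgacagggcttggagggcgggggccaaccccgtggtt
The matches began 200, 110, 139 and 110 bases before the start sites of Vldlr, Atf3, Fgf21 and Nupr1, and all 4 read the same 8 letters. The stretches lie at chr19:27216784-27216863, chr1:191183400-191183479, chr7:45615586-45615665 and chr7:126625537-126625616, the first on the plus strand and the others on the minus strand. A match of letters is a description and does not show that a factor bound there.

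Similar searches gave 5 of 15 genes of the Nrf2 list with the antioxidant response element (TGACNNNGC and its reverse complement) against 14% of all genes, and 4 of the 9 raised genes. For the sterol regulatory element (TCACNCCAC) it was 1 of 15 genes of cholesterol synthesis, Hmgcs1, against 1.44%. For the cell cycle homology region (TTTGAA) it was 10 of 20 cell cycle genes, against 20.2%, and 4 of the 11 raised ones. The promoter of Hmgcs1, which makes the precursor of mevalonate, and that of Txnrd1, the thioredoxin reductase (0.40, raised, but not called after median centring at 0.27, with a dimmer probe set lowered at -0.65), carried their matches 137 and 92 bases before the start.
Hmgcs1: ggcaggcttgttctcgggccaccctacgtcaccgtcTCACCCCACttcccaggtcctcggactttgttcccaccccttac
Txnrd1: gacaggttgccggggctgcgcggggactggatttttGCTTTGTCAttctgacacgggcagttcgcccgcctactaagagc
These stretches are chr13:119690178-119690257 and chr10:82859078-82859157, both on the plus strand. The capitals mark the sterol regulatory element in the first and the reverse complement of the antioxidant response element in the second.

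Genes of growth arrest and of early response were raised in part. Of 19 p53 targets, 9 were raised and 0 lowered (median 0.39), against 6 raised and 2 lowered after quantile normalization and 5 and 1 after median centring. Cdkn1a, the p21 inhibitor of the cell cycle, had signals of 23.2, 27.7, 24.7 and 26.4 in NC and 232, 415, 329 and 314 in MCD+HF mice (log2 difference 3.20, standard error 0.30, adjusted p = 4.3e-07), and Gadd45b 21.3, 20.7, 13.3 and 14.8 in NC and 273, 279, 328 and 285 in MCD+HF mice (log2 difference 3.46, standard error 0.19, adjusted p = 2.0e-09). Mdm2 (-0.11) and Ccng1 (-0.01), 2 other targets, were not called, and neither was Gadd45a, a relative of Gadd45b. Which factor raised Gadd45b was not tested. Among immediate early genes, 9 of 17 were raised and 2 lowered: Klf6 (3.33), Ier3 (3.35), Fosl2 (2.76), Myc (1.99) and Jun (1.38) rose, and Fos (-0.28) was not called.

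Cell cycle genes were raised alongside these. Of 25 tested, 14 were raised and 1 lowered (median 0.70). The list had 35 genes on the array. Those below the filter were higher in MCD+HF mice in some cases and lower in others, as with Plk1 (mean signal 12 in NC and 15.55 in MCD+HF mice) and Foxm1 (11.12 and 8.525). Genes as dim in NC mice as Mki67 passed the filter only through mice on the diet, so the share raised is partly set by it. Ccnd1, the cyclin of the first growth phase, had signals of 184, 149.9, 212 and 199.5 in NC and 2048, 2011, 936 and 1177 in MCD+HF mice (log2 difference 2.91, standard error 0.27, adjusted p = 4.3e-07). Mki67, a marker of dividing cells, had 7.9, 25.2, 10.9 and 3.7 in NC and 68.1, 55.3, 37.4 and 41.8 in MCD+HF mice (log2 difference 1.53, standard error 0.28, adjusted p = 3.6e-04), and the replication helicase subunits Mcm6 (1.62), Mcm5 (1.29) and Mcm4 (1.07) were raised. The mean of the list over NC was 1.03, 1.07, 0.37 and 0.65 in MCD+HF mice 1 to 4. The cells in which these transcripts were made cannot be told from whole liver.

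Most matrix genes tested were raised. Hepatic stellate cells, which store retinoids at rest, turn in injury into myofibroblasts that lay down collagen. Of 32 genes of collagens and matrix, 24 were raised and 3 lowered (median 1.51). Col1a1 had signals of 18.6, 16.2, 29.1 and 4.6 in NC and 217, 144, 138 and 137 in MCD+HF mice (log2 difference 2.70, standard error 0.27, adjusted p = 9.7e-07), Col1a2 97.3, 112, 92.5 and 80.6 in NC and 669.9, 528, 395 and 502 in MCD+HF mice (log2 difference 2.32, standard error 0.17, adjusted p = 4.4e-08) and Col3a1 345, 230.4, 269 and 237 in NC and 2316, 2001, 1120.1 and 1617 in MCD+HF mice (log2 difference 2.63, standard error 0.21, adjusted p = 1.2e-07). These 3 fibrillar collagens were higher in all 4 MCD+HF mice than in any NC mouse, as were 24.9% of all genes. Col6a3 (2.75), Lum (2.58), Col4a1 of basement membrane (2.37) and Lama2 (2.34) rose as well. Col18a1 (-0.99) and Fn1, the fibronectin that hepatocytes secrete (-0.95; -0.55 after quantile normalization), were lowered.

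Of 20 tested genes of matrix remodelling and crosslinking, 16 were raised and 1 lowered (80% and 5%, against 27.3% and 21.1% of all genes). The list had 25 genes on the array. Genes as dim in NC mice as Mmp12 and Timp1 passed the filter only through mice on the diet, so this share is partly set by the filter. Below it, Mmp13 had mean signals of 3.725 in NC and 16.38 in MCD+HF mice, and Mmp9 20.5 and 10.7. Mmp12, the elastase of macrophages, had signals of 7.7, 19.8, 1.4 and 5.2 in NC and 1347, 1218, 456 and 551 in MCD+HF mice (log2 difference 5.55, standard error 0.34, adjusted p = 6.6e-09), and Mmp7, an epithelial protease, 10.1, 36.2, 34.3 and 6.7 in NC and 995, 1089, 1019.7 and 900.1 in MCD+HF mice (log2 difference 5.13, standard error 0.26, adjusted p = 8.5e-10). The inhibitors of metalloproteinases rose too, with Timp1 at 9.3, 16.1, 10.1 and 13.2 in NC and 66.3, 54.7, 32.6 and 49 in MCD+HF mice (log2 difference 1.43, standard error 0.20, adjusted p = 2.7e-05), Timp2 at a log2 difference of 2.62 and Timp3 of 2.12. The crosslinking enzymes Lox (1.94) and Loxl1 (1.45) were raised.

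The ligands and receptors of fibrosis rose together, 20 of 26 with 2 lowered (median 1.08). Tgfb1, the transforming growth factor, had signals of 38.8, 15.6, 33.1 and 45.2 in NC and 116, 89, 62.8 and 59.3 in MCD+HF mice (log2 difference 1.1, standard error 0.23, adjusted p = 0.00118). Pdgfra, a receptor of platelet-derived growth factor, had 81.3, 51, 45.3 and 45 in NC and 429, 508, 448 and 329 in MCD+HF mice (log2 difference 2.76, standard error 0.21, adjusted p = 5.9e-08), and Pdgfrb (1.96), the ligand Pdgfc (1.92), Ccn2 (2.44) and the endothelin receptor Ednrb (2.86) were raised. Markers of stellate cells were raised in 13 of 20 and lowered in 3 (median 0.94). Acta2, smooth muscle actin, had 85.2, 67.6, 74.7 and 59.8 in NC and 194, 154, 106 and 144 in MCD+HF mice (log2 difference 0.94, standard error 0.20, adjusted p = 0.00124), Vim 286, 265, 229 and 213 in NC and 1532, 1465, 944 and 965 in MCD+HF mice (log2 difference 2.23, standard error 0.19, adjusted p = 1.9e-07), and Lrat, which stores retinol as ester in quiescent stellate cells, 138, 112, 147 and 163 in NC and 397, 303, 357 and 296 in MCD+HF mice (log2 difference 1.22, standard error 0.15, adjusted p = 1.1e-05). Des, the desmin of stellate cells, was not called (0.01).

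Of 15 tested genes of bile duct cells, 14 were raised, with a median of 2.07. The list had 18 genes on the array. Genes as dim in NC mice as Epcam and Krt19 passed the filter only through mice on the diet, so this share is partly set by the filter. Below it were Sctr (mean signal 14.4 in NC and 15.2 in MCD+HF mice), Cftr (6.85 and 14.65) and Muc1 (1.675 and 8.625). Epcam, an adhesion molecule of ducts and progenitors, had signals of 3.1, 0.7, 13 and 8.5 in NC and 181, 160.4, 119 and 136 in MCD+HF mice (log2 difference 3.33, standard error 0.26, adjusted p = 6.1e-08). Cd24a had 76.8, 66.8, 34.5 and 41.6 in NC and 1040.3, 895, 697 and 689.7 in MCD+HF mice (log2 difference 3.73, standard error 0.25, adjusted p = 1.3e-08) and Krt19, a duct keratin, 24.8, 5.1, 2.2 and 2.2 in NC and 56.8, 60.7, 67.8 and 56 in MCD+HF mice (log2 difference 2.07, standard error 0.29, adjusted p = 3.6e-05). Sox9 (1.55), Krt23 (2.71) and Prom1 (2.75) rose with them. Afp, made by the fetal liver, had 8.2, 15.5, 35.7 and 13.4 in NC and 605, 763, 666 and 803 in MCD+HF mice (log2 difference 4.75, standard error 0.38, adjusted p = 8.6e-08), while the imprinted fetal gene Igf2 was not called (-0.03). Tff3 was the 1 member of the oncofetal and injury list that was lowered (-2.06); 9 of its 15 genes were raised.

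Of 25 genes of S100 proteins, annexins and the cytoskeleton, 21 were raised and 3 lowered (84% and 12%, against 27.3% and 21.1% of all genes). Anxa2, an annexin of membranes, had signals of 127, 124, 121 and 97.5 in NC and 1431, 1234, 758 and 919 in MCD+HF mice (log2 difference 3.07, standard error 0.16, adjusted p = 1.1e-09), and Tubb2a, a tubulin, had 227, 179, 329 and 162 in NC and 2192, 2529.6, 2293 and 2322 in MCD+HF mice (log2 difference 3.37, standard error 0.17, adjusted p = 8.5e-10). S100a4 (2.86), S100a6 (2.23) and Tmsb10 (2.09) rose as well, genes that many cells other than hepatocytes express. Actb, at very bright signals, had -0.82 against -0.01 after quantile normalization, while Actg1 was raised (1.24). Ezr and S100a13 were lowered under both scalings.

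Most macrophage genes were raised, whereas genes of resident Kupffer cells were lowered more often than raised. Of 22 markers of macrophages and monocytes, 19 were raised and 0 lowered (median 1.45). Cd68, a lysosomal glycoprotein of macrophages, had signals of 86.5, 93.2, 77.4 and 74.2 in NC and 599, 599.8, 318 and 399 in MCD+HF mice (log2 difference 2.35, standard error 0.22, adjusted p = 4.3e-07). Lyz2 had 404, 452, 439 and 332 in NC and 2811, 2459.5, 1263 and 1489.8 in MCD+HF mice (log2 difference 2.21, standard error 0.21, adjusted p = 5.0e-07), and Ccr2, the receptor that brings monocytes into tissue, 15.1, 19.9, 21.7 and 13.5 in NC and 166, 149, 74.2 and 88.3 in MCD+HF mice (log2 difference 2.17, standard error 0.23, adjusted p = 2.1e-06). Adgre1, which encodes F4/80, had a mean signal of 189 ± 16.7 (SD, n = 4) in NC and 213 ± 37.6 in MCD+HF mice and was not called (0.15). Of 13 Kupffer cell genes, 7 were lowered and 3 raised: Clec4f, a lectin of Kupffer cells, had 559, 558, 434 and 485 in NC and 165, 102, 335 and 229.6 in MCD+HF mice (log2 difference -1.36, standard error 0.27, adjusted p = 7.7e-04), and Timd4 65.3, 81.4, 43.6 and 40.2 in NC and 9.6, 11, 38.9 and 14.9 in MCD+HF mice (log2 difference -1.30, standard error 0.27, adjusted p = 9.4e-04), and the 3 raised genes were Id3 (1.72), Fabp7 (1.75) and Marco (1.45), the last not called with a robust variance. C6, the largest fall of that list, is also made by hepatocytes.

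The program of lipid-associated macrophages was raised in 13 of 16 genes, with a median of 2.27. Trem2, a receptor for lipids on macrophages, had signals of 1.8, 6.0, 2.9 and 1.8 in NC and 162, 165, 80.8 and 77.8 in MCD+HF mice (log2 difference 3.26, standard error 0.30, adjusted p = 4.8e-07). Itgax, which encodes CD11c, had 23.1, 10.3, 9.5 and 6.7 in NC and 294, 289, 128 and 156 in MCD+HF mice (log2 difference 3.31, standard error 0.28, adjusted p = 1.8e-07), and Lgals3 108, 117, 115 and 118 in NC and 3351, 3559, 2075 and 2324 in MCD+HF mice (log2 difference 4.47, standard error 0.16, adjusted p = 1.9e-11). Atp6v0d2 (2.73), Clec7a (2.74) and Cd9 (2.13) followed, and Gpnmb and Mmp12, described above, belong here as well. Lysosomal genes were raised in 12 of 24 and lowered in 3 (median 0.35; 6 lowered after median centring), led by the proton pump subunit Atp6v1b2 (1.42) and the protease Ctsd (1.34).

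**Figure D5:**
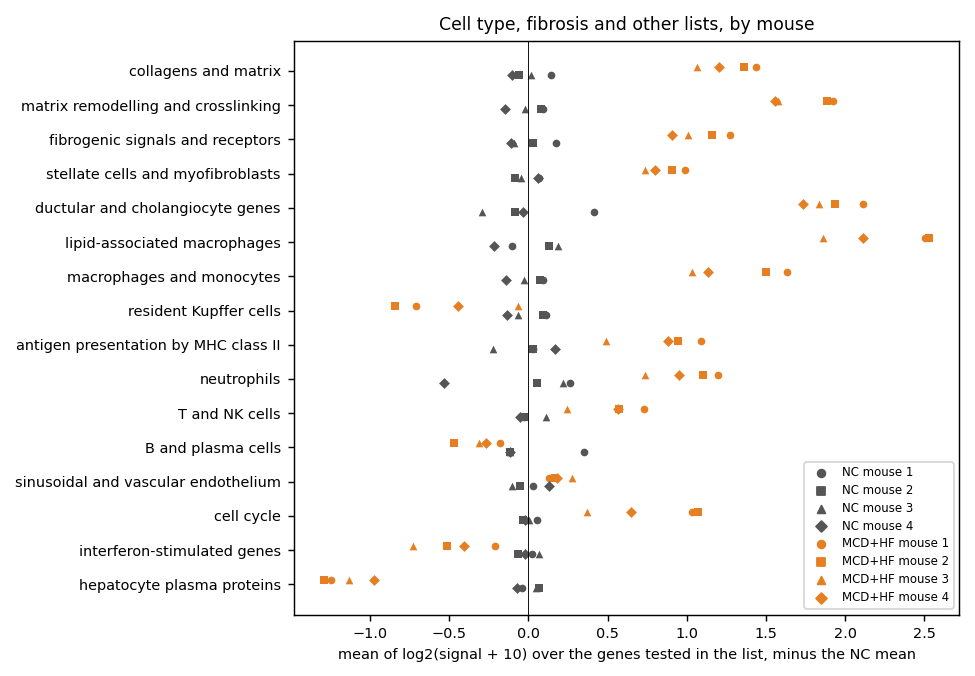
Mean of log2(signal + 10) over the tested genes of 16 lists (rows), relative to the NC mean (horizontal axis), for each mouse; grey symbols are NC mice, orange symbols MCD+HF mice, and the shape gives the mouse number. In the macrophage list MCD+HF mice 1 and 2 lie at 1.63 and 1.5 and mice 3 and 4 at 1.03 and 1.14, while no NC mouse exceeds 0.1.

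The MCD+HF mice were not alike in these lists. Arrays 1 and 2 correlated at 0.988 and arrays 3 and 4 at 0.984, against 0.976 to 0.981 for the other pairs. The mean of the macrophage list over NC was 1.63, 1.5, 1.03 and 1.14 in MCD+HF mice 1 to 4, and that of the Kupffer list -0.71, -0.84, -0.06 and -0.45. Collagens and matrix gave 1.44, 1.36, 1.06 and 1.20. Mice 1 and 2 were thus higher in macrophage, collagen and cell cycle genes and lower in Kupffer genes than mice 3 and 4; the labels name no batch that would set them apart, and this grouping was seen in the data and not tested.

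Lymphocyte and neutrophil genes were few above the filter. Of the markers of T and NK cells, Cd3d, Cd3e, Cd3g and Cd4 had mean signals under 15 in both groups and were not tested. Of the 8 tested, 3 were raised and 1 lowered (37.5% and 12.5%, against 27.3% and 21.1% of all genes), with a median of -0.15. Il7r, the interleukin 7 receptor, had the largest rise of these (2.82 on the log2 scale). Zap70 was lowered on each of its tested probe sets, and Cd8a was not called. Of 8 neutrophil genes tested, out of 15 on the array, 5 were raised and 2 lowered (62.5% and 25%, against 27.3% and 21.1% of all genes). S100a8 (1.66) and Clec4d (3.37) were among the rises and Prtn3 (-1.76, not called by the methods' t-test after adjustment) among the falls. Clec4d, dim in NC mice, passed the filter only through mice on the diet. Mpo, Elane, Camp and Ltf were below the filter. Of these, Ltf had mean signals of 13.3 in NC and 7.175 in MCD+HF mice, and Camp 1.825 and 6.15. Class II antigen presentation was raised in 6 of 7 genes (Cd74 1.14, H2-Aa 0.83). The part of these cell types in the other results was not tested.

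Chemokine, cytokine and adhesion genes were raised more often than lowered, while interferon-stimulated genes were lowered more often than raised. Of 24 genes of the first list, 11 were raised and 6 lowered (45.8% and 25%, against 27.3% and 21.1% of all genes). Their median was 0.40, against 0.05 over all genes. Ccl2, the monocyte attractant, had signals of 10.4, 13.2, 27.9 and 16.6 in NC and 60.6, 41.3, 24.6 and 38.1 in MCD+HF mice (log2 difference 0.91, standard error 0.26, adjusted p = 0.0091). Vcam1, an adhesion molecule of endothelium, had 169.5, 137, 76.9 and 155 in NC and 518, 433, 629 and 456 in MCD+HF mice (log2 difference 1.88, standard error 0.25, adjusted p = 2.2e-05). Cxcl9, a target of interferon gamma, was lowered by limma (-1.25) but not by the methods' t-test after adjustment. Tnf, Il6 and Ifng had mean signals under 10 in both groups and were not tested. Interferon-stimulated genes were lowered in 17 of 27 and raised in 3 (median -0.57; 15 lowered and 2 raised after quantile normalization). Irf7, the factor that amplifies interferon, had 281, 236, 185 and 195 in NC and 102, 78.8, 87 and 78 in MCD+HF mice (log2 difference -1.27, standard error 0.14, adjusted p = 2.8e-06), and Bst2 599.7, 587, 609 and 629 in NC and 206, 167, 149.9 and 175 in MCD+HF mice (log2 difference -1.75, standard error 0.10, adjusted p = 4.2e-09).

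Endotoxin sensing was mixed, with 7 of 19 raised and 3 lowered (36.8% and 15.8%, against 27.3% and 21.1% of all genes). Cd14, the coreceptor of endotoxin, had signals of 61.6, 82.3, 81.1 and 42.5 in NC and 301, 289, 252 and 251 in MCD+HF mice (log2 difference 1.91, standard error 0.24, adjusted p = 1.2e-05), and Lbp, which hands endotoxin to it, 1435, 1451, 1269.5 and 876 in NC and 361, 309.9, 618 and 560.3 in MCD+HF mice (log2 difference -1.45, standard error 0.24, adjusted p = 1.3e-04). Tlr4 was not called (0.14), while its dimmer probe set was raised (0.66). Of 25 endothelial genes, 6 were raised and 5 lowered, which is close to all genes (27.3% and 21.1%). Cd34, found in capillary but not sinusoidal endothelium, had 8.5, 5.1, 12.5 and 9.7 in NC and 104, 117, 85.6 and 71.6 in MCD+HF mice (log2 difference 2.46, standard error 0.19, adjusted p = 5.4e-08), and Lyve1 (1.02) and Vwf (0.89) were raised, whereas Pecam1 was not called (0.25). Stab2 and Cdh5 were lowered. As dim as it was in NC mice, Cd34 passed the filter only through mice on the diet.

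Among checks of the samples, the ratios of control transcripts differed little between the groups. Signal at the 3' end relative to the 5' end of a control transcript is a ratio that rises when RNA is degraded. For Actb it was 1.73 ± 0.14 (SD, n = 4) in NC and 1.54 ± 0.069 in MCD+HF mice (p = 0.0857, exact permutation test, two-sided). For Gapdh it was 0.710 ± 0.012 and 0.699 ± 0.012 (p = 0.314, same exact test). The smallest p that this exact test allows for 4 against 4 is 0.0286. Pancreatic genes were at low signals, with Prss2 at a mean signal of 56.7 ± 18.8 (SD, n = 4) in NC and 14 ± 8.95 in MCD+HF mice (-1.53, lowered), and Adipoq, Lep and Retn of fat tissue had mean signals under 6 in both groups. Fabp4, the 1 tested gene of the fat tissue list, was raised (1.87), and in NC mouse 3 it lay 1.05 above the NC mean. Whether fat tissue had a part in this was not tested. Proteasome genes were mostly not called, with 4 of 29 raised and 1 lowered, against 12 and 0 after quantile normalization. Ribosomal protein genes, 2 of 22 raised and 6 lowered (median -0.09), turned to 15 raised and 0 lowered after quantile normalization (median 0.29).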

How the data were processed

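Liver RNA of individual mice was hybridised by the authors to Affymetrix Mouse Genome 430 2.0 arrays. They deposited 1 signal intensity per probe set from GCOS, on a linear scale, after global scaling to an average of 100; trimming 2% of values at either end left a mean of 100 on each array. The version of the array software is not printed here, and its detection and change calls were not used. Of 45101 probe sets, 64 were controls. Groups and numbers came from the sample titles. Annotation named 1 gene for 34945 probe sets, several for 932 and none for 9160; 34741 symbols were updated through gene identifiers of RefSeq (GRCm38.p6). Some genes of the lists are not reported here.

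No further normalization was applied, and tests used log2(signal + 10). The 3 groups of 4 mice were fitted with limma 3.58.1 (R 4.3.3; lmFit, then eBayes with trend) at 9 residual degrees of freedom, and the contrast MCD+HF minus NC was adjusted by Benjamini-Hochberg over 22832 probe sets. Each p-value reflects variation among mice, and few arrays limit the precision; the median standard error of a gene was 0.159. The pipeline was tested on simulated data. The lists and members were chosen with earlier results of these data known, so each list is described by counts, most with a median, without a set test. They stand against 27.3% raised, 21.1% lowered and a median of 0.05 over all genes. Genes were named from the 15 largest rises and the 15 largest falls without overlap between groups, the first 3 genes of each list, up to 4 further called genes per list, and those that the study measured by real-time PCR. In addition, 58 list members were chosen after their values were seen. The methods' t-test was run on the same values, with the study's rule of over 1.5-fold at an unadjusted p under 0.05, and without the change call. Alternatives were offsets of 1 and 32, no filter or a mean signal of at least 50, quantile normalization, median centring, the replicate number as a block, a model of 8 arrays, a robust variance, other representative probe sets and each array left out in turn. Promoters came from a RefSeq table. Plots were made with matplotlib 3.10.9 (Python 3.11.15).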

Additional observations from a re-analysis of the deposited data

Results flagged for a closer look

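In 24 of 550 groups of 4 mice, taken over the genes described above, 1 mouse lay apart from the other 3 on the log2(signal + 10) scale by Dixon's test at the 95% level; chance gives about 1 in 20 such groups. Among MCD+HF mice, mouse 1 was apart for Hsd3b5 (18.9 against 7.2 to 8.0), Serpina4-ps1 (6.7 against 0.7 to 0.9), Ces2a (89.8 against 91.3 to 91.6), Plin4 (252 against 439 to 463), Col1a1 (217 against 137 to 144), Ddit4 (224 against 374 to 399) and Trib3 (118 against 62.4 to 68.5). MCD+HF mouse 2 had Sult1e1 at 1218 against 524 to 602, and mouse 4 had Creld2 at 123 against 149 to 155 and Ppara at 2156 against 1810.0 to 1832.

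Among NC mice, mouse 4 was apart for Srebf1 (1164 against 796 to 825), Mlxipl (946 against 681 to 706), Fabp7 (61.7 against 91.7 to 96.5), Gldc (406 against 551 to 572), C9 (4265 against 5512 to 5646), C8a (6264 against 7487 to 7598), Abcc3 (1122 against 533 to 563) and Anxa2 (97.5 against 121 to 127). NC mouse 1 was apart for Serpina4-ps1 (1004 against 231 to 287) and C3ar1 (15.4 against 39.3 to 46.2), mouse 2 for Hal (1448 against 1118 to 1129) and Col4a1 (94.4 against 152 to 158), and mouse 3 for Cidea (6.3 against 2.0 to 2.4) and Atf3 (10.1 against 25 to 28.7). In none of the called genes but Ppara did an alternative processing end the call of the gene; Trib3 and Abcc3 were not called in the first place.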

How the results depend on the processing

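The number of probe sets called lay between 7721 (mean signal of at least 50) and 10816 (no filter) across the limma alternatives, against 9999. With 1 array left out it was 8581 to 9469, with 2642 to 2874 genes raised and 2049 to 2241 lowered. Under the methods' rule of an unadjusted p with over 1.5-fold, 6073 probe sets were chosen, with 1941 genes raised and 1282 lowered, while the methods' t-test after adjustment called 8622. Median centring gave 2263 raised and 3210 lowered genes, and quantile normalization 2768 and 2698. Of the 275 genes described with a value, 245 were called, and 223 of them were called the same way under every alternative. Quantile normalization turned the sign of Apoa1 (0.0157), Apob (0.28), Cpt1a (0.28), Cyp2e1 (0.16) and Mat1a (0.27), and of Igf1 (0.14), Acaca (-0.02) and Des (-0.07), which were called under neither scaling; median centring turned Acaca (-0.05), Des (-0.13), Gclc (-0.10) and Pklr (-0.03), none of them called. The cause was not tested. Same-numbered NC and MCD+HF arrays deviated from their group means with correlations of 0.09, -0.01, -0.08 and 0.07, so the numbers do not pair the mice; with the replicate block 9941 probe sets were called, with 3024 genes raised and 2336 lowered. Signals at or below about 20 limit what can be said of T cell, cytokine and neutrophil genes, and values of the brightest transcripts rest on the scaling.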

Other observations

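Clock and vitamin A genes had no place in the comparisons above. Of 15 genes of the circadian clock, 2 were raised and 4 lowered, against 27.3% and 21.1% of all genes. Dbp, an output factor of the clock that is high in early evening, had signals of 1694, 1547, 1896 and 2230.2 in NC and 1158, 596, 488 and 584 in MCD+HF mice (log2 difference -1.44, standard error 0.31, adjusted p = 0.0016), and Cry1, a repressor of the clock, 50.4, 49.2, 45 and 29.6 in NC and 63.8, 95.3, 154 and 96.6 in MCD+HF mice (log2 difference 1.03, standard error 0.21, adjusted p = 0.00108). Nr1d1 was lowered (-0.81) and Per2 raised (0.53), while Arntl (0.53) and Clock (0.35) were not called, and 2 dimmer probe sets of Clock were called in opposite directions (0.57 and -0.59). The labels give no time of day, and its part in these values was not tested.

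Of 12 genes of retinoid storage and metabolism, 1 was raised and 6 were lowered, but the median of -0.42 turned to 0.03 after quantile normalization, where 3 were raised and 4 lowered. Rdh10, which oxidises retinol, had signals of 357, 348, 335 and 395 in NC and 176, 172, 153 and 186 in MCD+HF mice (log2 difference -1.02, standard error 0.13, adjusted p = 8.4e-06), and Dhrs3, which reduces retinal, 645, 577, 621 and 675 in NC and 425, 347, 289.8 and 318 in MCD+HF mice (log2 difference -0.86, standard error 0.12, adjusted p = 3.0e-05). Lrat, given above, was the member raised.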
